A study of Sus scrofa domesticus with 2 samples.

Results

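The cells described here were cultured pig lung endothelial cells that carried the largest shares of SLPI, CFD and CRYAB transcripts. They were chosen by a fixed rule. A lung barcode stayed in if its count of detected genes lay above 200 and below 5000, and if less than 30% of its unique molecular identifiers (UMIs, each standing for 1 captured transcript) came from the 13 mitochondrial genes. It also needed 3 or more UMIs of the endothelial adhesion gene PECAM1, with no more than 2 UMIs of the collagen genes COL1A1 and COL1A2 together. Cells with 3 or more UMIs summed over the interferon-induced genes CXCL10, RSAD2, IFIT1 and IFIT2 were removed, and the top 15% of the rest by the share of UMIs from SLPI, CFD and CRYAB were taken. The lung library held 5946 barcodes and 57213236 UMIs. Of these barcodes 5682 passed the limits on genes and mitochondrial UMIs, 5245 that on PECAM1 and 5169 that on the collagen genes, and 4769 remained once 400 interferon-responding cells were removed. This gave 715 SLPI/CFD/CRYAB-high cells, against 4054 other cells of the same library, where the 2 libraries of the series held 7131 barcodes in all.

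Both libraries came from domestic pigs (Sus scrofa domesticus), 1 from lung and 1 from aorta, with 1 library per tissue. The lung cells were released by filling a washed lung lobe with a collagenase solution through its large vessel, and the aorta cells by filling a closed segment of the aorta close to the lung. Both were then grown in DMEM with 10% fetal calf serum, and no treatment or genotype separated them. The study's methods give crosses of Landrace, Large White and Duroc, 6 months old and from a slaughterhouse, for tissue used in its single-cell libraries, and do not say whether the cultured cells came from such pigs. The sources used here give neither the number of animals nor the time in culture. No deposited annotation of cells was used. With 1 library per tissue there was no replicate, so no p-value is given. The 95% intervals in brackets were exact Poisson intervals for levels, exact binomial (Clopper-Pearson) intervals for shares of cells and exact conditional intervals for ratios, and they covered counting error only.

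SLPI encodes secretory leukocyte protease inhibitor, a secreted inhibitor of neutrophil elastase and related serine proteases that is best known from airway secretions. CFD encodes complement factor D (adipsin), the secreted serine protease that cleaves factor B in the alternative complement pathway and is abundant in fat. CRYAB encodes alpha B-crystallin, a small heat shock protein that binds unfolding proteins and is abundant in lens and muscle. TIMP3 is a matrix-bound inhibitor of metalloproteinases, FGF2 a growth factor for endothelial cells, and ZMAT3 an RNA-binding protein whose gene is a direct p53 target. Endothelial cells in culture divide, and cells that leave the cycle lose the transcripts of DNA replication and mitosis.

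The score, the percent of a cell's UMIs that came from SLPI, CFD and CRYAB, fell continuously across the ranked cells. In the chosen cells it ran from 0.0360% to 1.41% with a median of 0.0589%, and in the others from 0 to 0.0359% with a median of 0.00641%. The median of the 20 chosen cells nearest to the limit was 0.0363% and that of the 20 nearest others was 0.0356%. No gap separated the groups: 102 chosen cells and 89 others lay within 10% of the limit. The chosen cells held a median of 6 UMIs of the 3 genes, with a range of 1 to 152, and 127 of them held 3 or fewer, whereas 153 held 10 or more. Of the other cells, 1976 (48.7%) had no UMI of any of the genes. UMIs of at least 2 of the genes were present in 524 chosen cells (73.3%) and in 519 others (12.8%). These values follow from the choice and describe the range that was cut, not a separate cell type.

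**Figure D1:**
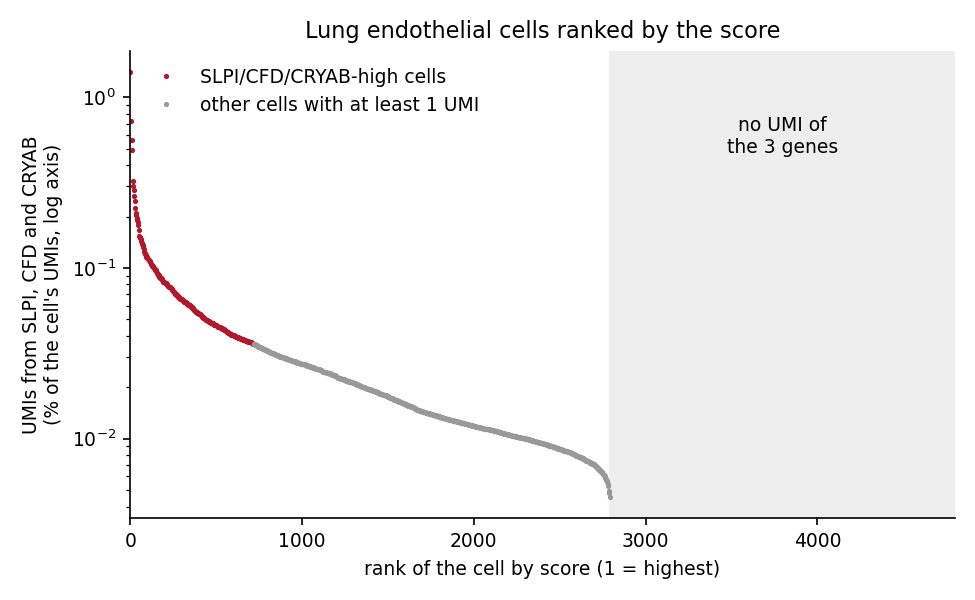
Share of each cell's UMIs from SLPI, CFD and CRYAB (log axis) against the rank of the cell, with a regular subset of the cells drawn, the 715 chosen cells in red and the others with at least 1 UMI in grey. The shaded ranks are cells with none of these UMIs, and the curve runs through the limit at 0.0360% without a step.

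The genes of the rule lie on different chromosomes of the Sscrofa11.1 assembly. In its RefSeq annotation SLPI is on chromosome 17 (chr17:47595804-47598364, minus strand), CFD on chromosome 2 (chr2:77509792-77511988, minus strand) and CRYAB on chromosome 9 (chr9:39638505-39643530, minus strand). SLPI was at 459 CPM (UMIs of the gene scaled to 1000000 UMIs pooled over the group; 443 to 475) in the chosen cells and at 28.4 CPM (26.8 to 30.1) in the others. A UMI of SLPI was present in 78.6% of chosen cells and 20.5% of others. CFD was at 169 CPM in the chosen cells and 34.4 CPM in the others, with a UMI in 56.8% and 25.5% of cells. CRYAB was at 187 and 26.0 CPM, with a UMI in 59.7% and 19.1% of cells. These differences were set by the choice. Of the marker genes given with the rule, TIMP3 lies at chr5:12185816-12242599, FGF2 at chr8:101278877-101344084 and ZMAT3 at chr13:117113272-117147639, all on the minus strand.

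How far the genes went together could be read from cells chosen without each of them. When the top 15% was taken on CFD and CRYAB alone, SLPI was at 238 CPM in the chosen cells and 66.9 CPM in the others, a ratio of 3.56 (3.35 to 3.78). With SLPI and CRYAB as the score, CFD had a ratio of 2.22 (2.03 to 2.42), and with SLPI and CFD as the score, CRYAB had a ratio of 2.44 (2.23 to 2.67). Each gene of the rule was therefore enriched in cells picked on the other genes, by less than in the cells it helped to pick. The link between CFD and CRYAB was the weakest of the pairs: cells chosen on CFD alone had a CRYAB ratio of 1.45 (1.31 to 1.61), and cells chosen on CRYAB alone a CFD ratio of 1.43 (1.30 to 1.57). Cells chosen on CFD alone had an SLPI ratio of 2.67, and cells chosen on CRYAB alone an SLPI ratio of 2.81. PECAM1 did not follow the choice, with a ratio of 1.01 (0.990 to 1.03) in cells chosen on SLPI alone.

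The promoter of SLPI is shown for the motifs it holds, since SLPI gave the most UMIs of the score in the chosen cells (3213, beside 1185 of CFD and 1307 of CRYAB). In the others CFD gave more (1373, against 1136 of SLPI). The stretch runs from 250 bases before to 20 bases after the annotated start (Sscrofa11.1, chr17:47598345-47598614, minus strand, 5′ to 3′), with matches in capitals to any of the motifs searched on both strands. These were the TATA box TATAAA, the CCAAT box, the cell cycle homology region TTTGAA, the heat shock element unit GAANNTTC, the AP-1 motif TGANTCA and the core of the interferon response element, in which any 2 bases stand between a pair of GAAA runs.
SLPI: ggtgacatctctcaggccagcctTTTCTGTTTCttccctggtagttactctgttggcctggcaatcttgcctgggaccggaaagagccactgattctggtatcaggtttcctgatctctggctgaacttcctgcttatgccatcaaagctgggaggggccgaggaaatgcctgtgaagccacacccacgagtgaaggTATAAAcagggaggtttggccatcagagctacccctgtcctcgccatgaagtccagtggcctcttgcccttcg
The first capitals, at position -227 from the annotated start, match the interferon element on the opposite strand, and those at -53 match the TATA box TATAAA. The RefSeq model of SLPI appears incomplete at its 5′ end: its coding sequence begins 41 bases after the first base of the model, and an ATG stands 8 bases before that base. The positions are therefore distances from the first base of that model and not from the start of transcription. Of 19508 promoters of protein-coding genes searched over 300 bases on both strands, 3.56% held the interferon element and 10.9% the TATA box. A match of letters is a description of the sequence and not a bound site.

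The cells carried transcripts of most endothelial genes listed. PECAM1, which the rule required, was at 1629 CPM (1599 to 1659) in the chosen cells and 1599 CPM (1587 to 1612) in the others. Of 24 endothelial identity genes listed, 16 reached 50 CPM in either group. In both groups 2 of the 24 were under 1 CPM, and 1 of these had no UMI in either. CDH5 (VE-cadherin, the junction protein of endothelium) was at 170 and 154 CPM. Defining genes of other cell types were at or near 0 in the chosen cells: the leukocyte gene PTPRC, the epithelial genes CDH1, KRT8, SFTPC and SCGB1A1, the pericyte gene RGS5 and the adipocyte gene ADIPOQ had no UMI, a count that allows up to 0.428 CPM. The 8 adipocyte genes summed to 5.00 CPM in the chosen cells and 2.63 CPM in the others, a ratio of 1.90 (1.26 to 2.81), of which PPARG made up 2.71 and 1.13 CPM and LPL 1.57 and 0.426 CPM. The fibroblast genes COL1A1 and COL1A2, limited by the rule, were at 12.7 and 13.7 CPM, against 12.6 and 13.0 CPM in the others. The 14 fibroblast genes together summed to 556 and 451 CPM, a ratio of 1.23 (1.19 to 1.27), most of it POSTN (periostin, a matrix protein) at 436 and 341 CPM, while DCN had no UMI in the chosen cells. The part of these cell type markers in the other ratios was not tested. The 19 epithelial genes among the features summed to 32.3 CPM in the chosen cells and 24.7 CPM in the others, of which KRT7 made up 29.7 and 22.2 CPM. The 18 immune genes summed to 448 and 334 CPM, nearly all of it LAPTM5 (436 and 325 CPM), and the 11 mural genes summed to 21.9 and 22.5 CPM. The lymphatic genes PROX1 and PDPN were at 0.428 and 0 CPM (0.300 and 0 CPM in the others), and the lung capillary gene CA4 had no UMI in either group.

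Sequencing depth did not separate the groups, with medians of 9333 UMIs per chosen cell and 9376 UMIs per other cell, and of 2832 and 2892.5 detected genes. The median share of mitochondrial UMIs was 6.48% in the chosen cells and 5.27% in the others. No doublet caller was used. Of 5 barcodes present in both libraries, 0 belonged to chosen cells.

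In lung cells without PECAM1, SLPI was low where the depth could show it, whereas CFD and CRYAB were each found in 1 such class. In 218 cells without a UMI of PECAM1 and with 10 or more UMIs of COL1A1 and COL1A2, which had a median of 10102 UMIs, SLPI was at 2.75 CPM (1.01 to 5.98) and CFD at 2.29 CPM (0.743 to 5.34). A UMI of SLPI was found in 2.75% and of CFD in 2.29% of these cells, and shares at this level were read as background. CRYAB was at 75.5 CPM in the same collagen-rich cells, with a UMI in 39.0% of them, above its 26.0 CPM in the unchosen endothelial cells. In 11 cells with immune transcripts and no PECAM1, SLPI had no UMI (0 to 65.0 CPM) and CFD was at 211 CPM (109 to 369). The 400 endothelial cells removed for their interferon-induced genes held all 3 transcripts at levels between those of the chosen cells and the others: SLPI at 230 CPM, CFD at 98.3 CPM and CRYAB at 117 CPM. A UMI of SLPI was present in 52.5% of them, against 20.5% of the others.

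Outside the genes of the rule, the chosen cells differed from the others by a moderate number of genes. Levels were compared for 3073 genes at 50 CPM or more in either group, and a gene was counted as higher where its ratio, the level in the chosen cells over that in the others, lay at least 25% above 1, and as lower at 0.8 or less. By that size, 217 genes (7.06%) were higher and 322 genes (10.5%) lower in the chosen cells, and the median ratio over all tested genes was 0.976. A ratio of 2 or more was reached by 7 genes, and a ratio of 1/2 or less by 7. A gene that reached 50 CPM in only 1 of the groups could be counted only as higher in that group.

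Several of the genes with the highest ratios encoded secreted and matrix proteins. CCL5, a chemokine that attracts T cells and monocytes, was at 67.3 CPM in the chosen cells and 21.8 CPM in the others, a ratio of 3.09 (2.76 to 3.46). It was concentrated in few cells: 101 chosen cells had a UMI and 10 of them held 69.4% of its 471 UMIs, and in the others 10 cells held 62.6% of 869 UMIs. GDF15, a secreted stress-induced cytokine, was at 81.8 and 26.9 CPM, a ratio of 3.04 (2.74 to 3.37), and it was spread more widely, with a UMI in 30.3% and 16.4% of cells. TIMP3 was at 119 CPM (111 to 128) against 52.8 CPM (50.6 to 55.1), FGF2 at 238 CPM (227 to 250) against 117 CPM (113 to 120), and ZMAT3 at 138 CPM (130 to 147) against 70.8 CPM (68.2 to 73.4). Their ratios were 2.26, 2.05 and 1.95. Raised levels of several of these genes were not limited to the chosen cells: in the 400 cells removed for interferon-induced genes, FGF2 was at 279 CPM, ZMAT3 at 137 CPM, GDF15 at 84.3 CPM, CCL5 at 655 CPM and IFI6 at 1108 CPM, close to or above the chosen cells. The interferon-induced ISG12(A) and IFI6 had ratios of 2.44 and 2.43. The metalloproteinase MMP23B (1.94), the fibronectin gene FN1 (1.78) and TFPI2, a secreted Kunitz-type protease inhibitor (1.78), followed. CCL5, GDF15 and TFPI2 reached 50 CPM in the chosen cells alone, so they could not have been counted as lower. The remaining genes among the highest 15 were MGMT, which repairs alkylated guanine in DNA (1.82), ITM2C, a membrane protein (1.79), the lysosomal fucosidase FUCA1 (1.78), the autophagosome protein MAP1LC3A (1.77) and the DNA polymerase delta subunit POLD4 (1.76).

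The levels moved in steps along the score and not only at the limit. Cells were placed in bands by score: 1976 cells without a UMI of the genes, 1039 cells in the lower and 1039 in the upper part of the other unchosen cells, 477 chosen cells below the top 5%, and the 238 cells of the top 5%. GDF15 was at 19.8, 26.7, 39.0, 59.1 and 130 CPM across these bands in that order. TIMP3 was at 43.4, 56.3, 64.8, 92.0 and 177 CPM, and FGF2 at 103, 111, 145, 217 and 283 CPM. CST3, which encodes the secreted cysteine protease inhibitor cystatin C, was at 583, 631, 740, 930 and 1333 CPM. CCL5 did not rise from band to band, at 20.2, 13.8, 32.8, 28.1 and 149 CPM. PECAM1 stayed between 1587 and 1633 CPM throughout. The median depth of the bands was 8799, 10132, 9904, 9408 and 9144 UMIs per cell, lowest in the cells without a UMI of the genes.

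**Figure D2:**
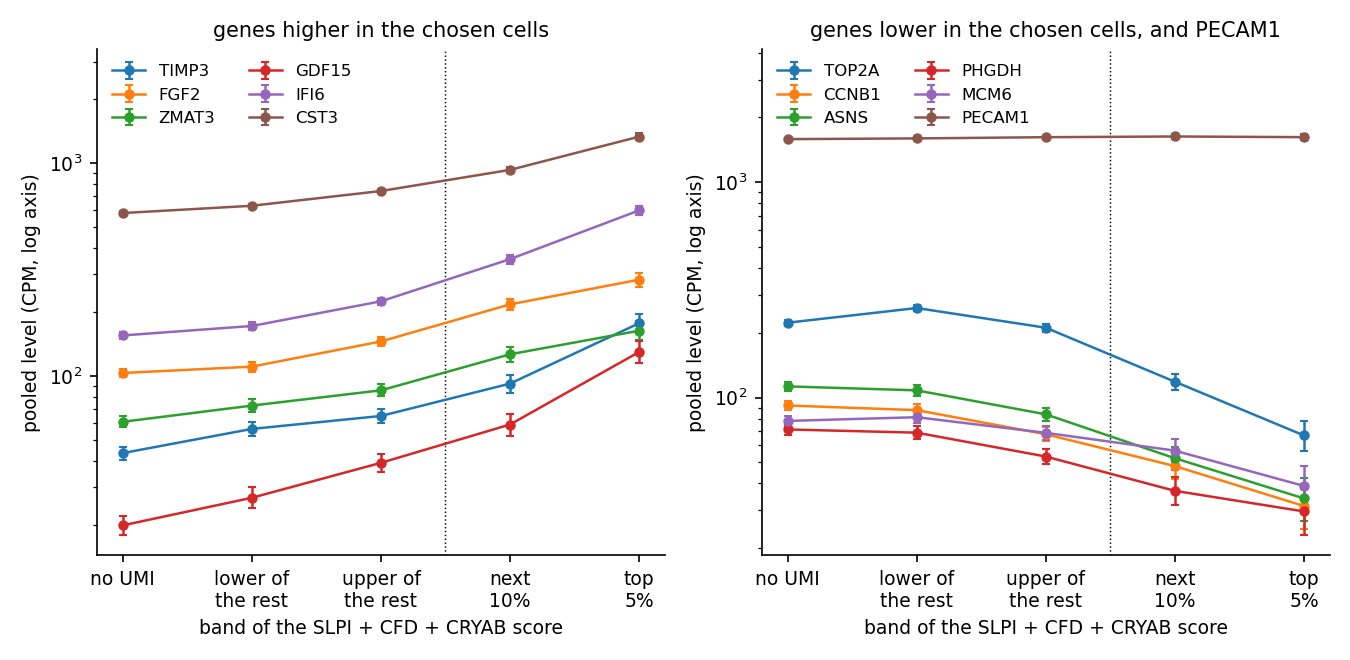
Pooled level (CPM, log axis) of 6 genes that were higher in the chosen cells (left), and of 5 genes that were lower with PECAM1 beside them (right), in 5 bands of the SLPI, CFD and CRYAB score, with 95% counting intervals as bars. The dotted line marks the limit; GDF15 runs from 19.8 to 130 CPM and TOP2A from 223 to 66.8 CPM between the first and last band, while PECAM1 stays level.

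Several genes that p53 activates in response to DNA damage and other stress were higher in the chosen cells. Of 10 tested genes in the list of p53 targets and cell cycle arrest genes, 6 were higher and 0 lower, with a median ratio of 1.35, against 7.06% higher and a median of 0.976 over all tested genes. MDM2, which encodes the ubiquitin ligase that degrades p53, was at 82.6 CPM in the chosen cells and 49.5 CPM in the others (ratio 1.67, 1.52 to 1.83). CCNG1 (cyclin G1) was at 264 and 189 CPM (1.40), the antiproliferative gene BTG2 at 76.8 and 56.3 CPM (1.36), and the nucleotide excision repair gene XPC at 64.3 and 48.2 CPM (1.33), beside GDF15 and ZMAT3. MDM2, XPC and GDF15 reached the 50 CPM needed for a comparison in the chosen cells alone, so 3 of the 6 had to be higher there to be counted, and ZMAT3 was a marker given with the rule. GADD45A (1.18) and the proapoptotic BAX (1.09) stayed under the ratio counted. CDKN1A, which encodes the p53-induced cyclin-dependent kinase inhibitor p21, was nearly undetected as a feature, at 1.86 and 1.15 CPM, so its own level could not be compared at this depth.

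Interferon-stimulated genes were also higher, although cells rich in 4 such genes had been taken out. Of 7 tested genes of the list, 5 were higher and 0 lower, beside 7.06% higher over all tested genes, and 2 of the 5, MX1 and ZNFX1, reached 50 CPM in the chosen cells alone. The 29 genes among the features summed to 2710 CPM in the chosen cells and 1855 CPM in the others, a ratio of 1.46 (1.44 to 1.48). IFI6, a small mitochondrial protein induced by type I interferon, was at 433 and 178 CPM. BST2 (tetherin, which holds budding virus particles at the membrane) was at 352 and 229 CPM, the ubiquitin-like ISG15 at 429 and 282 CPM, and the antiviral GTPase MX1 at 61.1 and 41.2 CPM. CXCL10, a gene of the filter, was at 1.29 CPM (0.588 to 2.44) and 0.826 CPM (0.569 to 1.16), so the intervals overlapped. The antigen presentation genes TAP1 and B2M had ratios of 1.36 and 1.28, whereas the immunoproteasome genes PSMB8, PSMB9 and PSMB10 had ratios from 0.876 to 0.963. When every cell with a single UMI of the 4 filter genes was left out as well, 496 chosen cells were set against 2812 others, and 188 genes were higher and 262 lower.

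The promoter of IFI6 holds overlapping interferon elements close to its start, and is shown as a counterpart of the SLPI promoter (Sscrofa11.1, chr6:84858053-84858322, minus strand, 5′ to 3′, motif matches in capitals).
IFI6: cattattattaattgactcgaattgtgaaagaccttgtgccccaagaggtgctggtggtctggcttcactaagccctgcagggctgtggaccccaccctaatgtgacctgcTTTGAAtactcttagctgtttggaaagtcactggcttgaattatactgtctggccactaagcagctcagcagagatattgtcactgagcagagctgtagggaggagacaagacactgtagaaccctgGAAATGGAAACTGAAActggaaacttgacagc
The matches to the interferon element begin at -12 and -6 and share 4 bases, and the earlier capitals match TTTGAA. Among the 15 genes with the highest ratios, the promoters of 3 (IFI6, ISG12(A) and TFPI2) held this element, and among 14 promoters found for the 15 lowest genes 0 did.

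Transcripts of DNA replication and mitosis were lower in the chosen cells, and these made up most of the lowest ratios. TOP2A, the topoisomerase that untangles chromosomes before division, was at 102 CPM (94.5 to 110) in the chosen cells and 231 CPM (226 to 235) in the others, a ratio of 0.441. The nuclear lamina gene LMNB1 (0.466), the spindle gene ASPM (0.467), the kinesin KIF20B (0.474), the condensin subunit NCAPG (0.495), cyclin B1 CCNB1 (0.507), HMGB2 (0.519), the mitotic kinase CDK1 (0.524), UBE2T (0.528), the linker histone HIST1H1D (0.535) and the anaphase activator CDC20 (0.547) were among the 15 lowest. Of 27 tested genes in the G2M list, 25 were lower and 0 higher, and the list summed to 2559 and 4163 CPM, a ratio of 0.615 (0.605 to 0.624). Of 12 tested S phase genes, 10 were lower and 0 higher, among them the helicase subunits MCM6 (0.667) and MCM5 (0.594) and the sliding clamp PCNA (0.629), and the list summed to 1331 and 1932 CPM, a ratio of 0.689 (0.674 to 0.704). These counts stand against 10.5% of all tested genes that were lower, and 9 of the 25 G2M genes and 4 of the 10 S phase genes reached 50 CPM in the others alone. Among the 15 lowest genes, only TOP2A and HMGB2 reached 50 CPM in the chosen cells as well. The rest of the 15 were compared through the others alone and could not have been counted as higher.

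Phase calls made from the same lists ran the same way. Of the chosen cells, 68.1% (64.6 to 71.5) were called G1, 7.83% S and 24.1% G2/M, against 39.0% (37.5 to 40.5), 17.0% and 44.0% of the others. With each cell thinned to 5000 UMIs, which left out 46 chosen cells and 227 others, the G1 shares were 68.0% and 40.9%. Read the other way, the chosen cells made up 23.5% of the G1 cells, 7.53% of the S cells and 8.79% of the G2/M cells. The chosen cells were thus enriched among cells called G1 without being limited to them, and 56 were called S and 172 G2/M.

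**Figure D3:**
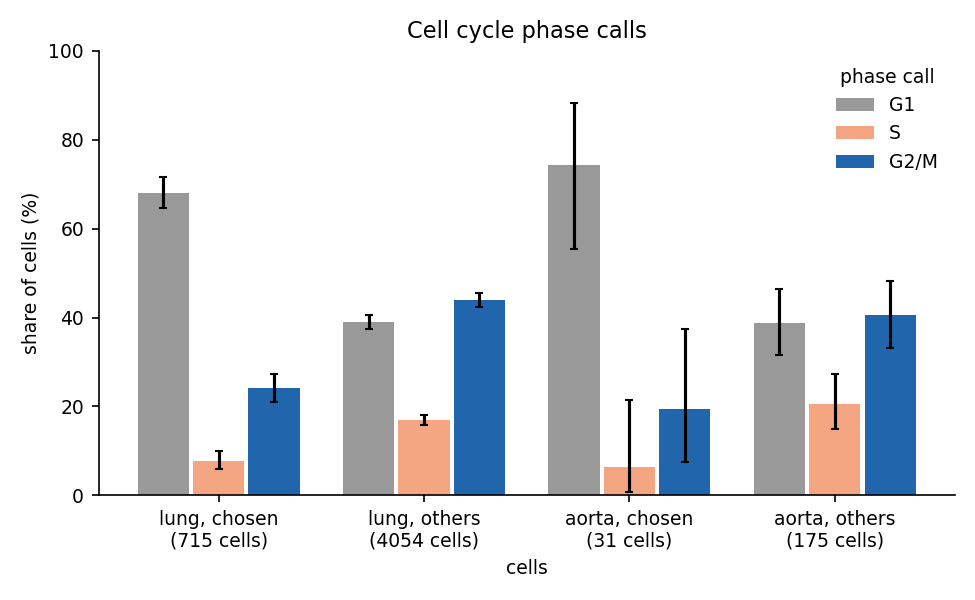
Share of cells (%) called G1, S or G2/M among the chosen and other cells of the lung library and among cells chosen by the same rule in the aorta library, with exact binomial 95% intervals as bars. G1 holds 68.1% of the chosen and 39.0% of the other lung cells, and 74.2% and 38.9% in the aorta.

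Promoters of mitotic genes are known for CCAAT boxes and for the cell cycle homology region, which are shown here in CDK1 and CDC20 because these genes moved together. The stretches are CDK1 at chr14:64233695-64233964 on the plus strand and CDC20 at chr6:167890568-167890837 on the minus strand (Sscrofa11.1, 5′ to 3′), with CCAAT or TTTGAA, on either strand, in capitals.
CDK1: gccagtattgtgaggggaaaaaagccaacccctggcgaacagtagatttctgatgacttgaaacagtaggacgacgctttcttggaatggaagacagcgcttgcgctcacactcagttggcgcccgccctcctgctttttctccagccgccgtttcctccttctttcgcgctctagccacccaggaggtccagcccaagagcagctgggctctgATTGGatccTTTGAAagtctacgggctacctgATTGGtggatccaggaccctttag
CDC20: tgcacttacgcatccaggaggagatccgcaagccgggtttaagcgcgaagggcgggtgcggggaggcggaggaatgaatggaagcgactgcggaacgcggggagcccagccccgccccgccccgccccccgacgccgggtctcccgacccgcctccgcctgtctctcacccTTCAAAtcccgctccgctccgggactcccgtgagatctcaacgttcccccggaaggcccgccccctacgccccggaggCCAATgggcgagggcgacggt
CCAAT was present in 13 of the 14 promoters found for the lowest 15 genes, in 7 of the 15 highest and in 35.4% of all 19508 promoters. TTTGAA was present in 8 of the 14, in 2 of the 15 and in 14.0% of all. The heat shock element unit GAANNTTC was in 0 of the 15 highest and the AP-1 motif TGANTCA in 1 of them, against 6.33% and 6.04% of all promoters. The lowest genes were chosen by their levels here, and no test was made on the motifs.

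Part of the difference stayed when cells of the same phase were compared. Within G1, 487 chosen cells had 141 CPM of TIMP3 against 68.7 CPM in 1582 others, a ratio of 2.05 (1.86 to 2.27), and FGF2 had a ratio of 1.88, ZMAT3 of 1.75, GDF15 of 3.41 and IFI6 of 2.16. Within G2/M the ratios were 1.88 for TIMP3, 2.11 for FGF2, 1.91 for ZMAT3, 2.63 for GDF15 and 2.28 for IFI6. CCL5 had a ratio of 3.43 within G1 and 1.43 (1.08 to 1.85) within G2/M. Among the 56 chosen S cells the intervals were wide, and FGF2 (0.874 to 1.5) and GDF15 (0.783 to 2.21) included 1. TOP2A had ratios of 0.812 (0.553 to 1.17) within G1, 1.06 (0.841 to 1.32) within S and 0.749 (0.688 to 0.814) within G2/M, where it was at 326 and 435 CPM. LMNB1 (0.317, 0.207 to 0.468) and ASPM (0.575, 0.351 to 0.902) were lower within G1 as well, and within G2/M their ratios were 0.830 (0.682 to 1.00) and 0.824 (0.714 to 0.947). When the top 15% was taken separately within each phase, so that the chosen cells and the others held the same mix of phases, 120 genes were higher and 87 lower. Of the 217 genes higher before, 114 (52.5%) were still higher, and of the 322 lower genes 83 (25.8%) were still lower. The S phase list then had a ratio of 0.927 and the G2M list 0.916, and TIMP3 kept a ratio of 2.03, FGF2 of 1.78 and ZMAT3 of 1.72. The phases were called from the S phase and G2M lists, so matching on phase draws the ratios of these lists toward 1 by construction. The same holds for genes of these lists, such as TOP2A, and for the share of lower genes kept.

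Genes of serine and asparagine synthesis were also among the lowest, and ASNS was lower in cells of every phase. ASNS, which makes asparagine, was at 46.4 CPM (41.5 to 51.7) in the chosen cells and 104 CPM (101 to 107) in the others, a ratio of 0.448, with ratios of 0.451 within G1, 0.433 within S and 0.620 within G2/M. PHGDH, the first enzyme of serine synthesis, was at 34.6 and 65.7 CPM (0.526), and the mitochondrial folate enzyme MTHFD2 at 32.8 and 59.9 CPM (0.549). The amino acid carrier SLC38A5 was at 27.4 and 55.5 CPM (0.494), with 0.477 within G1. ASNS and PHGDH are among the genes that the transcription factor ATF4 activates, and of 11 tested genes of the unfolded protein and integrated stress response list 5 were lower and 0 higher: ASNS, PHGDH, the cystine carrier SLC7A11 (0.630), its partner SLC3A2 (0.742) and ATF4 itself (0.781). Of these 5, ASNS, PHGDH and SLC7A11 reached 50 CPM in the others alone, and 10.5% of all tested genes were lower. In the same list XBP1 had a ratio of 1.02 and HERPUD1 of 1.12.

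Other chaperones did not follow CRYAB. Of 20 tested heat shock and chaperone genes, 0 were higher and 3 lower, with a median ratio of 0.878, beside 10.5% lower over all tested genes. The small heat shock protein HSPB1 was at 816 CPM in the chosen cells and 743 CPM in the others, a ratio of 1.1 (1.07 to 1.13). BAG3, a co-chaperone that binds small heat shock proteins, had a ratio of 1.03. The lower genes were the mitochondrial chaperones HSPD1 (0.725) and HSPA9 (0.731) and the chaperonin subunit CCT5 (0.732).

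Lysosomal genes were higher as a group. Of 18 tested genes, 13 were higher and 0 lower, with a median ratio of 1.29, beside 7.06% higher and a median of 0.976 over all tested genes, and 2 of the 13, CTSF and CTSS, reached 50 CPM in the chosen cells alone. GRN (progranulin) was at 162 and 96.0 CPM (ratio 1.69), the membrane protein SCARB2 at 106 and 69.1 CPM (1.53), the cathepsins CTSS and CTSD at ratios of 1.47 and 1.41, and the smallest ratio of the 18 was that of CTSC (1.1). Genes that protect from metal and peroxide stress were mixed: 4 of 14 were higher and 0 lower, namely metallothionein MT1X (229 and 137 CPM, 1.67), the ferritin light chain FTL (1.33), the peroxidase GPX1 (1.30) and SQSTM1 (1.28), whereas HMOX1 was at 0.837 and NQO1 at 0.916. Transcripts of the mitochondrial genome summed to 66228 CPM in the chosen cells and 54317 CPM in the others, with 4 of 12 tested genes higher. Nuclear genes of the respiratory chain did not share this, with 0 of 29 higher and 1 lower. The part that the larger mitochondrial share played in the other ratios was not tested.

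Other genes of protease inhibition and of complement behaved unequally. Of 12 tested protease inhibitor genes besides SLPI, 3 were higher, beside 7.06% higher over all tested genes. The 3 were TFPI2, CST3 (1061 and 639 CPM, 1.66) and CSTB (cystatin B, 1.35), and TFPI2 reached 50 CPM in the chosen cells alone. SERPINB2, an inhibitor of urokinase, was lower at 191 and 324 CPM (0.588). Among complement genes, the inhibitor of the classical pathway SERPING1 was at 62.3 and 38.8 CPM (1.61) and CLU (clusterin) at 90.8 and 67.0 CPM (1.36). SERPING1 reached 50 CPM in the chosen cells alone. CFB, the substrate of factor D, and C3 were nearly absent: CFB was at 0 and 0.0751 CPM and C3 at 0.286 and 0.426 CPM. C1R and C1S, proteases of the classical pathway, were at 34.6 and 30.6 CPM in the chosen cells and 23.5 and 15.3 CPM in the others, under the 50 CPM at which genes were counted.

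Beside TIMP3, other genes of matrix turnover and of endothelial growth signals were higher. MMP2 was at 295 and 192 CPM (1.53) and TIMP2 at 90.1 and 66.2 CPM (1.36), while TIMP1 was at 1.18. Of 5 tested metalloproteinase and inhibitor genes, 3 were counted as higher, beside 7.06% over all tested genes. TIMP3 was among these 3, and it was a marker given with the rule. ESM1 (endocan), a secreted proteoglycan of activated endothelium, was at 977 and 580 CPM (1.68), and ANGPTL4 at 182 and 118 CPM (1.55). In the TGF-beta and BMP list 4 of 17 tested genes were higher and 0 lower, beside 7.06% higher over all tested genes. The 4 were LTBP1, which stores latent TGF-beta in the matrix (1.71), the coreceptor ENG (1.45), the BMP receptor BMPR2 (1.42) and ID2 (1.27). LTBP1 reached 50 CPM in the chosen cells alone. FGF2 was the only tested gene among the FGF ligands and receptors. The secreted IGFBP7 was at 1556 and 1064 CPM (1.46). From the list of proteins secreted by senescent cells, 5 of 11 tested genes were higher and 0 lower, beside 7.06% higher over all tested genes. Of the 5, CCL5 and GDF15 reached 50 CPM in the chosen cells alone, so they could not have been counted as lower. CXCL8 was at 0.986 and CCL2 at 1.03.

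Endothelial genes were kept and a few were higher. In the endothelial identity list 3 of 16 tested genes were higher and 0 lower, with a median ratio of 1.12, beside 7.06% higher over all tested genes. The 3 were ENG, the transcription factor SOX18 (1.34) and the sialomucin EMCN (1.32). Of 5 tested arterial genes, 1 was higher, the gap junction gene GJA5 at 255 and 169 CPM (1.51), and the other ratios ran from 1.17 to 1.2. ICAM1 was at 221 and 167 CPM (1.32), while VCAM1 was at 3339 and 3178 CPM (1.05) and NFKBIA at 0.999, so the adhesion and NF-kB genes other than CCL5 and ICAM1 stayed under the ratio counted. The contractile genes TAGLN (0.987) and TPM1 (0.969) did not differ by the size counted, and 0 of 13 tested genes of that list were higher or lower. The transcription factor ZEB2, linked to the endothelial to mesenchymal transition, was at 51.0 and 47.1 CPM (1.08, 0.963 to 1.21). Ribosomal protein genes gave a level baseline, with 0 of 50 higher or lower and a summed ratio of 0.968.

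**Figure D4:**
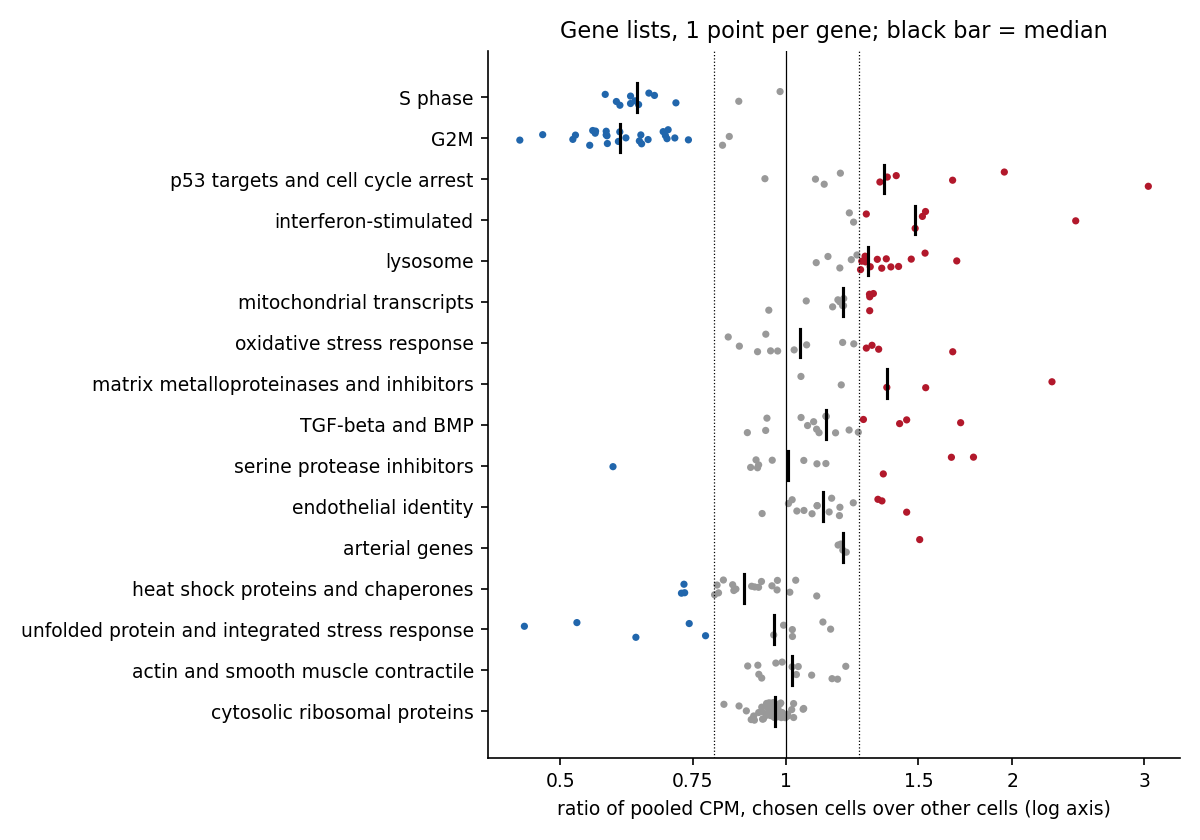
Ratio of pooled CPM in the chosen cells over the others (log axis) for each tested gene of 16 lists, with genes at least 25% above 1 in red, at 0.8 or less in blue and the median of each list as a black bar. The S phase and G2M lists lie left of 1, the p53, interferon and lysosome lists right of it, and the 50 ribosomal protein genes lie close to 1.

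The gene that led the score differed among the chosen cells. SLPI gave the most UMIs in 367 cells (51.3%), CRYAB in 170 (23.8%), CFD in 134 (18.7%), and 44 cells (6.15%) had a tie. TIMP3 was at 128 CPM (116 to 140) in the cells led by SLPI, 112 CPM in those led by CRYAB and 105 CPM (87.3 to 124) in those led by CFD, all above the 52.8 CPM of the other cells. FN1 stood apart, at 249.4 CPM (233 to 266) in the cells led by SLPI, 146 CPM (126 to 169) in those led by CFD and 153 CPM in those led by CRYAB, against 116 CPM in the others. TOP2A was at 91.0 CPM in cells led by SLPI, 59.5 CPM in cells led by CFD and 160 CPM in cells led by CRYAB, and the shares called G1 were 69.2%, 71.6% and 60.6%. GDF15 was at 84.6, 65.9 and 90.9 CPM and IFI6 at 429, 407 and 451 CPM in the same order, so these genes were raised over the other cells whichever gene led.

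The aorta library took no part in choosing the cells, and the same rule was applied to it. Its cells were far deeper, so the upper limit on detected genes was not used there. The collagen and interferon limits stayed at the same UMI counts, which are stricter for deeper cells. Of 689 aorta cells that passed on PECAM1, 399 passed on collagen, and 193 of these were removed for interferon genes. In the lung 5169 of 5245 passed on collagen and 400 were removed. In the aorta 206 cells remained, of which the top 15% were 31, against 175 others, with median depths of 46029 and 44668 UMIs. The lowest score of these 31 cells was 0.0943%, above the limit that held in the lung. By the same ratios, 586 of 3376 tested genes (17.4%) were higher and 726 (21.5%) lower in the chosen aorta cells, larger shares than in the lung and from far fewer cells. Of the 198 genes that were higher in the lung and tested in both libraries, 160 (80.8%) were higher in the aorta and 0 were lower, beside 14.5% higher among all 2929 genes tested in both. Of 311 lower genes, 275 (88.4%) were lower and 3 higher, beside 21.7% lower among all.

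The genes named above took the same direction in the aorta with few exceptions. TIMP3 was at 379 CPM in the chosen aorta cells and 48.7 CPM in the others, a ratio of 7.77 (6.74 to 8.97), against 2.26 in the lung. FGF2 had a ratio of 2.04 (1.80 to 2.31), ZMAT3 of 2.74 (2.37 to 3.16), GDF15 of 4.28 (3.52 to 5.19), ISG12(A) of 3.61 and IFI6 of 2.17. Of the 15 highest lung genes, 14 were tested in the aorta and all 14 were higher; CCL5 was not counted, since it stayed under 50 CPM, at 32.3 and 6.54 CPM. Of the 15 lowest, 13 were tested, 12 were lower and 1, PHGDH, was higher. The aorta G2M list had a ratio of 0.454 and the S phase list 0.474, and 74.2% (55.4 to 88.1) of the chosen aorta cells were called G1 against 38.9% (31.6 to 46.5) of the others. The p53 list was higher in 9 of 11 tested genes, with MDM2 at 2.81. The lysosome list was higher in 18 of 20, and the interferon list in 5 of 7, beside 17.4% higher over all genes tested in the aorta. How many genes of these lists reached 50 CPM in the chosen aorta cells alone was not counted. CRYAB in the unchosen aorta cells was at 171 CPM, above its 26.0 CPM in the unchosen lung cells, so the same rule did not select on the same levels in both libraries. Tissue, animal and library cannot be told apart here.

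**Figure D5:**
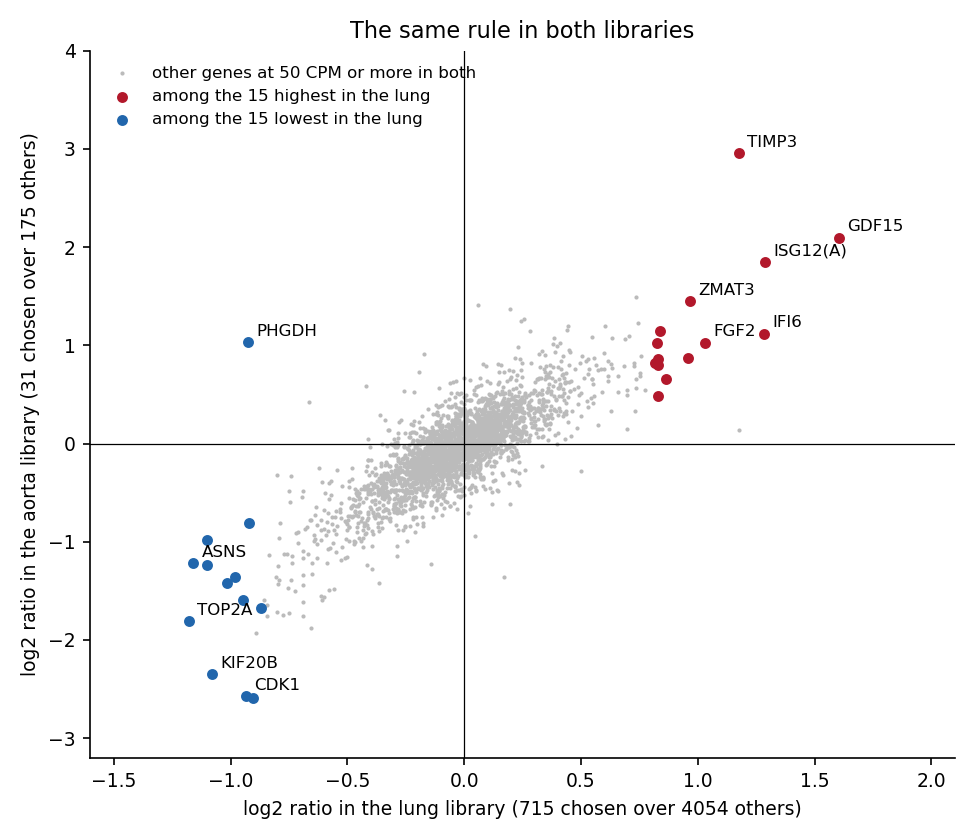
Log2 ratio of chosen over other cells in the lung library (horizontal axis) and in the aorta library (vertical axis) for genes at 50 CPM or more in both, with tested genes among the 15 highest in the lung in red and among the 15 lowest in blue. Nearly all coloured genes lie in the same quadrant in both libraries; PHGDH lies at -0.93 in the lung and above 0 in the aorta.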

How the data were processed

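Single-cell libraries of cultured lung and aorta endothelial cells were made with the 10x Genomics 3′ kit (v3 chemistry). Per the labels and the study's methods, the authors ran Cell Ranger 3.0.2 against the Ensembl Sscrofa11.1 assembly and deposited matrices of UMI counts per gene and barcode, not normalized. Doublets were limited by the study only through the upper limit on genes, and no caller was run here. The 13 mitochondrial genes of the rule include ND1, which the study's own filter left out.

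Features without a symbol were named from NCBI gene tables where the identifier matched: of 22804 features, 7821 had an identifier only, 1051 of these were named, and 6774 stayed under an identifier, 4 of them because the symbol repeated. Counts were summed over chosen and over other cells and scaled to CPM. The chosen cells, the 40 gene lists and the comparisons were picked with earlier results of these data known. The genes named were the 15 highest and 15 lowest ratios with a symbol at 50 CPM or more, the markers given with the rule, and up to 4 genes of each list with the largest ratios, with its defining genes near 0; any others were named after their values were seen. Genes of a list at 50 CPM or more in 1 group had to pass that floor through the group where they were higher, so counts describe tested genes only. Phases were called with scanpy 1.11.5 (score_genes_cell_cycle) on counts scaled to 10000 UMIs. Thinning drew 5000 UMIs per cell. Intervals used scipy 1.17.1. Positions and promoters came from the RefSeq annotation of Sscrofa11.1, the same build. Depth set the precision: the lung groups held 7001794 and 39949173 UMIs.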

Additional observations from a re-analysis of the deposited data

Results flagged for a closer look

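Several results ran in opposite directions in the lung and the aorta libraries, with counting intervals on either side of 1; each difference rests on 1 library per tissue and was not tested. PHGDH, the first enzyme of serine synthesis, had a ratio of 0.526 (0.459 to 0.600) in the lung and 2.05 (1.51 to 2.74) in the aorta, where it was at 52.9 CPM in 31 chosen cells and 25.9 CPM in 175 others. ASNS, which was low beside it in the lung, had a ratio of 0.430 in the aorta. The cystine carrier SLC7A11 had a ratio of 0.630 in the lung and 1.34 in the aorta. The unfolded protein and integrated stress response list, which holds these genes, had a summed ratio of 0.882 in the lung and 1.18 in the aorta. In the aorta 7 of its 14 tested genes were higher and 2 lower, beside 17.4% higher and 21.5% lower over all genes tested there. The immediate early list had summed ratios of 0.969 and 1.18, and the actin and smooth muscle contractile list 0.956 and 1.04. All of these list ratios stayed under the size counted either way. The median ratio over all tested genes was 0.976 in the lung and 0.979 in the aorta, so the lung value of 0.969 lay near that median.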

How the results depend on the processing

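In the lung, the list ratios recomputed were those of S phase and G2M, and the gene ratios those of TIMP3, FGF2 and ZMAT3. None of these changed direction under the alternatives run. The other lists and named genes were not part of this check. Counts of genes have no direction and could only stay or move. Of 121 recomputed values, including that for the aorta, 71 stayed within their interval or within 1.5 times the count. The counts of higher and lower genes were 138 and 224 with the top 25%, 138 and 206 with SLPI left out of the score, 50 and 84 at a ratio of 1.5, 7 and 7 at a ratio of 2, 455 and 677 at a floor of 20 CPM, and 127 and 173 at a floor of 100 CPM. With the top 15% taken within each phase, an alternative chosen after seeing the data, they were 120 and 87, and the S phase and G2M lists had ratios of 0.927 and 0.916. The phases were called from these same lists, so their ratios within phases were partly set by the choice. The S phase and G2M ratios were 0.589 and 0.564 with the top 10%, 0.737 and 0.674 with the top 25%, 0.734 and 0.667 without SLPI, 0.664 and 0.572 without CRYAB, 0.710 and 0.650 with the mean of log-normalized values, 0.711 and 0.779 in cells called G1 only, and 0.653 and 0.586 with interferon cells kept. The S phase ratio was 0.731 without any cell holding a UMI of the 4 interferon genes, also added after seeing the data. The G2M ratio was 0.639 without CFD, 0.669 with thinned cells and 0.599 without UMIs of COL1A1 or COL1A2. TIMP3 ran from 2.0 to 2.57, FGF2 from 1.69 to 2.20 and ZMAT3 from 1.67 to 2.1 over 16 alternatives each. In the aorta, 14 of the 15 highest lung genes were counted as higher without the upper limit on genes, and 14 with it (9 chosen cells, no CPM floor), but not the same 14: with it CCL5 was added, and TFPI2 went from a ratio of 1.40 (1.07 to 1.82) to 0.616 (0.0705 to 2.48). No paired analysis was possible because each tissue has 1 library. Small groups limit what depth can show: 56 chosen S cells, 31 chosen aorta cells (9 with the limit on genes) and 11 cells with immune transcripts.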
